A study of Mus musculus with 6 samples.

Results

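Amino acid transporters of the plasma membrane and the lysosome were followed as a set in livers of fasted mice that lack CREBH (CREBH-KO) and of wild-type (WT) mice. The set holds every protein-coding gene whose symbol places it in the solute carrier (SLC) families SLC1, SLC3, SLC6, SLC7, SLC36, SLC38 or SLC43. Of 55536 annotated genes, 64 had such a symbol. One of them, Slc7a6os, is a gene on the strand opposite Slc7a6 and no transporter, which leaves 63 transporter genes. The family rule is wider than the name amino acid transporter. It also takes in the carriers of monoamines, of GABA, betaine, taurine and creatine, and Slc43a3, a carrier of purine nucleobases.

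Hepatocytes take up most amino acids that reach the liver, use alanine and other gluconeogenic amino acids for glucose during a fast, and pass their nitrogen to urea and glutamine. SLC38 carriers move glutamine, alanine and histidine together with sodium, and SLC1 carriers move glutamate, aspartate and small neutral amino acids. Several SLC7 carriers are light chains that work only when bound to a heavy chain, Slc3a1 or Slc3a2, which brings them to the cell surface. SLC6 carriers are driven by sodium and chloride, SLC36 carriers by protons, and the SLC43 family holds carriers of large neutral amino acids.

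The CREBH-KO group held 3 liver samples from mice without CREBH, a membrane-bound transcription factor of hepatocytes, and the WT group held 3 liver samples from control mice. All mice, WT mice included, had been fasted for 14 h, and no fed liver was analysed here. Age, sex, strain background and the exons removed are not given in the labels used here. The labels do not say that each sample came from its own mouse, so p-values measure the spread between these samples.

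Creb3l3, the gene for CREBH, was at 57.4, 45.0 and 46.4 CPM (its count scaled to a common library size) in the CREBH-KO libraries, against 467, 496 and 495 CPM in the WT libraries. Its log2 fold change was -3.29 ± 0.11 (SE, n = 3 each), with a p of 3.00e-06 in edgeR's quasi-likelihood test after Benjamini-Hochberg adjustment over all genes tested. Reads counted in genes numbered 28106243 to 34146918 in the CREBH-KO libraries and 31679996 to 39288819 in the WT libraries. Summed over 7 hepatocyte markers, the level was 69038 to 74041 CPM in CREBH-KO and 59589 to 73234 CPM in WT livers, and 1 of the 7, Apob, fell (3854 CPM in CREBH-KO and 4957 CPM in WT livers on average, edgeR adjusted p = 0.0419). Among markers of other liver cells, none of 7 endothelial, 7 Kupffer cell and 5 erythroid genes passed, while Dcn and Colec11 of 7 stellate genes, Sox9 of 5 cholangiocyte genes and Ptprc of 5 leukocyte genes rose. Of all genes tested, 10.4% passed in either direction. The cholangiocyte genes went both ways, 2 with log2 fold changes above 0 and 3 below, with Epcam at -1.11 (edgeR adjusted p = 0.107). For CREBH-KO 2 and 3 a lost fastq of read 1 is recorded in the labels. In these 2 libraries many intestinal transcripts were also lower than in the other 4, as described with Slc6a19.

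Of the 63 transporter genes, 37 had enough counts to be tested and 26 did not. The test was passed by 8 transporters, 2 higher and 6 lower in CREBH-KO, at an adjusted p under 0.05 over all 15589 genes tested. Slc3a1 and Slc38a2 rose, and Slc1a2, Slc38a3, Slc38a4, Slc38a10, Slc43a1 and Slc43a3 fell. The 8 genes are 21.6% of the transporters tested, against 10.4% of all genes tested. Over all genes tested, 3.91% passed with higher levels and 6.46% with lower levels in CREBH-KO. The median log2 fold change was -0.11 over the 37 transporters and 0.02 over all genes tested, with 15 transporters above 0 and 22 below. In 13 of the 37 the CREBH-KO libraries did not overlap the WT libraries, 4 with CREBH-KO above and 9 with CREBH-KO below. Over all genes tested, 30.6% did not overlap, 15.0% with CREBH-KO above and 15.7% with CREBH-KO below. Only Slc3a1 passed under all 15 other settings. With CREBH-KO 2 left out 2 transporters passed, with CREBH-KO 3 left out 1, with WT 2 left out 2 and with WT 3 left out 4. With CREBH-KO 1 left out 11 passed, and with WT 1 left out 9. When CREBH-KO 1 alone was set against WT, 1 passed. In whole-liver RNA, fewer cells of a type and less RNA per cell cannot be told apart.

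**Figure D1:**
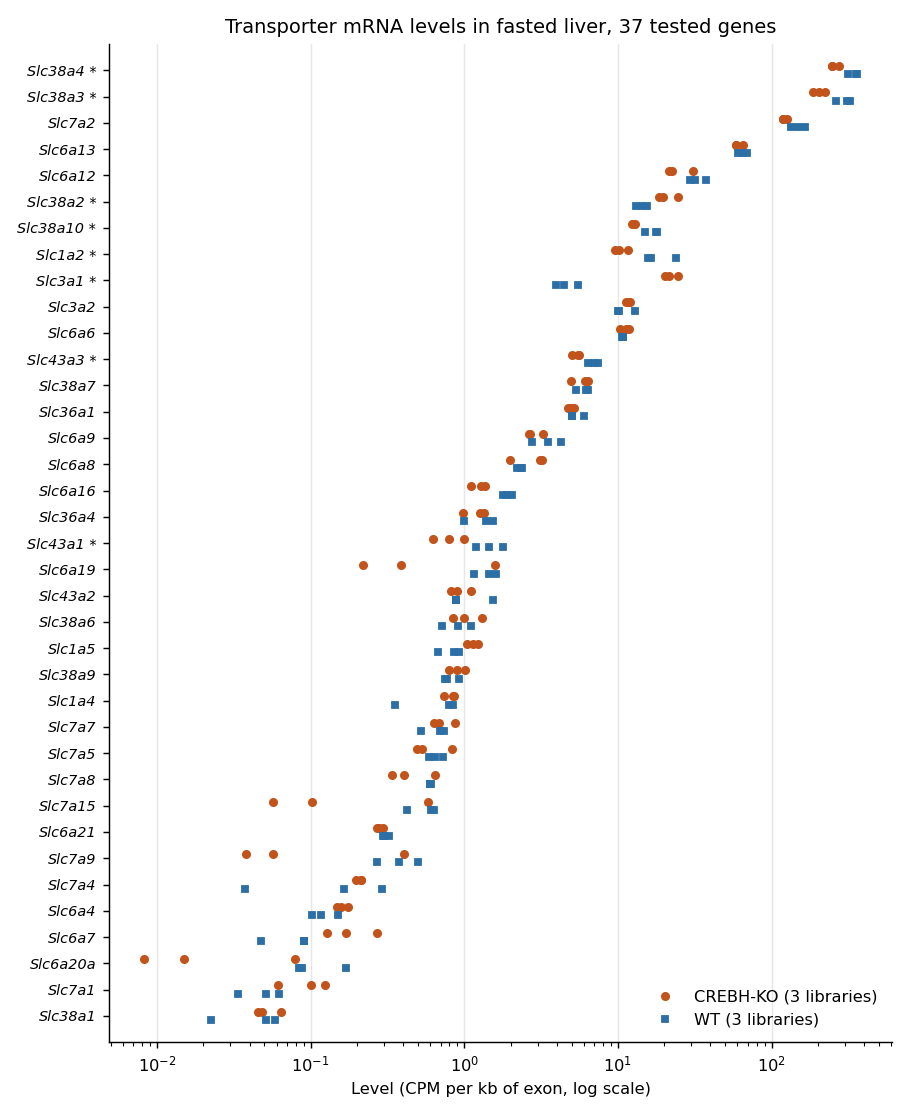
Levels of the 37 tested transporter genes in CPM per kb of exon on a log axis, with 1 point per library (circles, CREBH-KO; squares, WT) and an asterisk at genes that passed the test. Slc38a4, Slc38a3 and Slc7a2 stand above all others, and Slc3a1 shows the widest gap between the genotypes among the highly expressed genes.

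Levels of different genes were compared per kb of exon. Slc38a4, Slc38a3 and Slc7a2 were the 3 highest transporters, as the plot of levels by gene shows. Together they held 73.3% to 73.9% of the summed transporter level in the CREBH-KO libraries and 77.7% to 80.1% in the WT libraries. The sum over all 63 genes was 833, 764 and 777 CPM per kb in CREBH-KO livers, against 915, 1036 and 1054 CPM per kb in WT livers. Every CREBH-KO sum lay below the lowest WT sum, and the ratio of the means was 0.790. The 4th to the 12th gene ran from Slc6a13, at 62.8 CPM per kb over all libraries, to Slc43a3, at 6.16. They were, in this order, Slc6a13, Slc6a12, Slc38a2, Slc38a10, Slc1a2, Slc3a1, Slc3a2, Slc6a6 and Slc43a3. Some neighbours in this order did not differ beyond the spread over libraries: Slc38a10 and Slc1a2 averaged 14.7 and 14.5 CPM per kb, and Slc3a2 and Slc6a6 averaged 11.3 and 10.9.

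**Figure D2:**
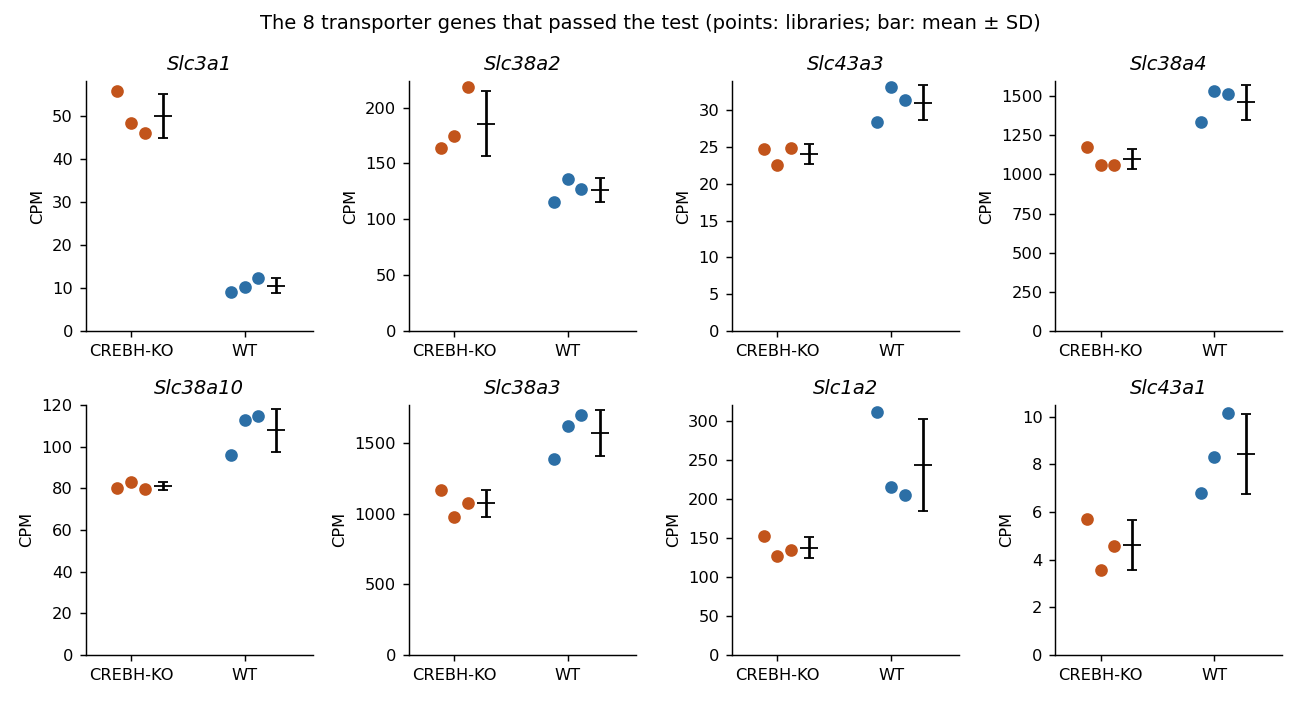
Level in CPM of the 8 transporter genes that passed the test, with 1 point per library, CREBH-KO left and WT right, and a bar for the mean ± SD of 3 libraries. In all 8 genes the CREBH-KO libraries lie wholly above (Slc3a1, Slc38a2) or wholly below the WT libraries.

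Slc3a1, which encodes rBAT, had the widest change of the set and is the heavy chain of the exchanger that takes up cystine and dibasic amino acids in kidney and intestine. Loss of the human gene causes cystinuria. It is on the plus strand of chromosome 17 from 85028376 to 85064236 (GRCm38). The sequence just upstream of its start is shown because no other transporter changed as much. It runs over chr17:85028097-85028346 on the plus strand (RefSeq start, GRCm38.p6), 5′ to 3′:
Slc3a1: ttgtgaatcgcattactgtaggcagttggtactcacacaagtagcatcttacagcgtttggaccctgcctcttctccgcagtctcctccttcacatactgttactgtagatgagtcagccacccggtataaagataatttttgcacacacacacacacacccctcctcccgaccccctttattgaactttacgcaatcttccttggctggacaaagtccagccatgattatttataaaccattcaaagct

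Slc3a1 was at 55.8, 48.5 and 46.1 CPM in CREBH-KO livers, against 9.02, 10.2 and 12.5 CPM in WT livers. The lowest CREBH-KO library was far above the highest WT library. Its log2 fold change was 2.25 ± 0.13 (SE, n = 3 each; edgeR's quasi-likelihood test, adjusted p = 3.92e-05), a 4.76-fold difference. Under the 15 other settings it ran from 2.14 to 2.38. Of its exonic bases, 26.5% lie within Prepl, a peptidase-like gene on the opposite strand, and the strand setting of the counts is not known. Prepl was at 24.7, 23.1 and 24.2 CPM in CREBH-KO livers, against 18.5, 18.2 and 19.4 CPM in WT livers. It rose by 0.36 on the log2 scale (edgeR adjusted p = 0.0307), a smaller change than that of Slc3a1.

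Slc3a1 pairs with the light chains Slc7a9 and Slc7a13, which were far less abundant in both genotypes. Slc7a9, its partner in the cystine exchanger, was at 1.08, 0.101 and 0.153 CPM in CREBH-KO livers, against 0.724, 1.35 and 1.01 CPM in WT livers. Only CREBH-KO 1 lay in the WT range, and the gene did not pass (edgeR adjusted p = 0.356). Slc7a13, another known partner, had 4 counts over the CREBH-KO libraries and 4 over the WT libraries. Per kb of exon, Slc3a1 averaged 22.1 CPM per kb in CREBH-KO livers against 4.64 CPM per kb in WT livers, while Slc7a9 averaged 0.167 and 0.383. The RNA of the heavy chain was not matched by that of Slc7a9 or Slc7a13 in either genotype. Slc7a11, the cystine carrier of system xc-, pairs with Slc3a2 and had 5 counts over all 6 libraries.

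The other heavy chain, Slc3a2 (4F2hc), was at 39.8, 41.4 and 42.2 CPM in CREBH-KO livers, against 45.8, 35.9 and 35.1 CPM in WT livers. The groups overlapped, and its log2 fold change was 0.08 ± 0.11 (SE; edgeR adjusted p = 0.711). Its light chains were all below 1 CPM per kb. Slc7a5 and Slc7a8, carriers of large neutral amino acids, averaged 2.29 and 2.32 CPM in CREBH-KO livers against 2.42 and 3.01 CPM in WT livers. Slc7a7, a light chain that exchanges cationic for neutral amino acids, averaged 2.41 CPM in CREBH-KO and 2.16 CPM in WT livers. None of these 3 passed the test (edgeR adjusted p of 0.433 to 0.889).

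Slc7a6, a light chain close to Slc7a7, fell under the count limit of the test, with the most counts of the 26 untested genes. It had 29, 3 and 20 counts in the CREBH-KO libraries, against 3, 6 and 8 in the WT libraries. CREBH-KO 1 and 3 were above all WT libraries and CREBH-KO 2 was not. Slc7a6os, the gene opposite to it, averaged 26.4 ± 1.65 CPM in CREBH-KO and 27.3 ± 1.24 CPM in WT livers (SD, n = 3 each) and did not pass (edgeR adjusted p = 0.767).

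In the SLC38 family 4 of 8 tested genes (50.0%) passed, 1 higher and 3 lower in CREBH-KO. Of all genes tested 10.4% passed, 3.91% higher and 6.46% lower, and 8 genes are few for a share. The family supplied the largest share of the summed transporter level in every library. Its sum was 503 ± 31.7 CPM per kb in CREBH-KO livers and 679 ± 59.1 CPM per kb in WT livers (SD, n = 3 each). Slc38a2 went one way and its more abundant relatives Slc38a3 and Slc38a4 the other.

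Slc38a2 encodes SNAT2, the system A carrier of alanine and other small neutral amino acids, whose gene is known to be induced when cells lack amino acids. It was at 164, 174 and 219 CPM in CREBH-KO livers, against 115, 136 and 128 CPM in WT livers. All CREBH-KO libraries were above all WT libraries. The log2 fold change was 0.55 ± 0.12 (SE, n = 3 each; edgeR adjusted p = 0.0198). The call was lost without CREBH-KO 3 (adjusted p = 0.0579) and without WT 2 (adjusted p = 0.0527).

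Slc38a4 encodes SNAT4, a carrier known for its high expression in liver. It was at 1171, 1060 and 1059 CPM in CREBH-KO livers, against 1332, 1530 and 1512 CPM in WT livers. The groups did not overlap, and the log2 fold change was -0.41 ± 0.09 (SE, n = 3 each; edgeR adjusted p = 0.0260). The call was lost without CREBH-KO 2, CREBH-KO 3, WT 2 or WT 3 (adjusted p of 0.0673 to 0.111).

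Slc38a3 encodes SNAT3, the system N carrier that moves glutamine and histidine into or out of hepatocytes. It was at 1169, 977 and 1078 CPM in CREBH-KO livers, against 1391, 1624 and 1703 CPM in WT livers. All CREBH-KO libraries were below all WT libraries. The log2 fold change was -0.55 ± 0.11 (SE, n = 3 each; edgeR adjusted p = 0.0147). The call was lost without CREBH-KO 2, CREBH-KO 3 or WT 2 (adjusted p of 0.0542 to 0.0656).

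Slc38a1, Slc38a2 and Slc38a4 lie side by side on the minus strand of chromosome 15 (GRCm38), from 96571418 to 96642913, from 96687392 to 96699730 and from 96994820 to 97055956. These neighbours did not move together. Slc38a1, the SNAT1 carrier, averaged 0.905 CPM in CREBH-KO and 0.757 CPM in WT livers and did not pass (edgeR adjusted p = 0.729). The promoters of Slc38a2 and Slc38a4 are shown because these neighbouring genes moved in opposite directions.

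In all, 4 motifs were searched on both strands in the 250 bases before each RefSeq start: TGACG (core of the CRE that CREB and ATF family factors bind, CREBH included), TGATGNAA (composite C/EBP-ATF element), GTTAAT (part of the HNF1 site) and GTAAACA (forkhead core). Of all 32851 mouse promoters in the RefSeq table, 17.8% held TGACG, 3.45% held TGATGNAA, 6.43% held GTTAAT and 3.17% held GTAAACA. Of the 8 transporters that passed, 6 have an entry, Slc38a4 with 3 starts. Slc38a3 and Slc43a3 are named only. Capitals mark the motif matches, none of which overlapped. They were TGACG once before the Slc38a2 start (chr15:96699729-96699978, minus strand) and once before the second Slc38a4 start (chr15:97031214-97031463, minus strand):
Slc38a2: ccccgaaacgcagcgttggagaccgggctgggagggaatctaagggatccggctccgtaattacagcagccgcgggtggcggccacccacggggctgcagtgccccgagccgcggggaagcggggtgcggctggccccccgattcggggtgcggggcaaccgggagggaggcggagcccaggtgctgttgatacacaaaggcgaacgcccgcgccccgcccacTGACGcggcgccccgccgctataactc
Slc38a4, second start: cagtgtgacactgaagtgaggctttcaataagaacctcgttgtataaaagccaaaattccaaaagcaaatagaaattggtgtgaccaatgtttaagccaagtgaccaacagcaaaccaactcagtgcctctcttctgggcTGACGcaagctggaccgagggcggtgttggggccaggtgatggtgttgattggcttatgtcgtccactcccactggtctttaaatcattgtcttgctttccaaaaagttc

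In the Slc3a1 sequence given with that gene none of the 4 motifs was found. A match says only that these letters are there, and TGACG was present in both a gene that rose and a gene that fell.

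The remaining SLC38 genes include carriers of lysosomes and less well-known members. Slc38a10 was at 80.3, 83.2 and 79.9 CPM in CREBH-KO livers, against 95.9, 113 and 115 CPM in WT livers. The CREBH-KO libraries lay close together and below every WT library. The log2 fold change was -0.41 ± 0.09 (SE, n = 3 each; edgeR adjusted p = 0.0199). Each of the 6 libraries except WT 1 ended the call when left out (adjusted p of 0.0502 to 0.0880). Slc38a7, a lysosomal glutamine carrier, Slc38a9, the lysosomal arginine sensor of the mTORC1 pathway, and Slc38a6 did not pass (edgeR adjusted p of 0.501 to 0.898). Their log2 fold changes were -0.03, 0.16 and 0.20.

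**Figure D3:**
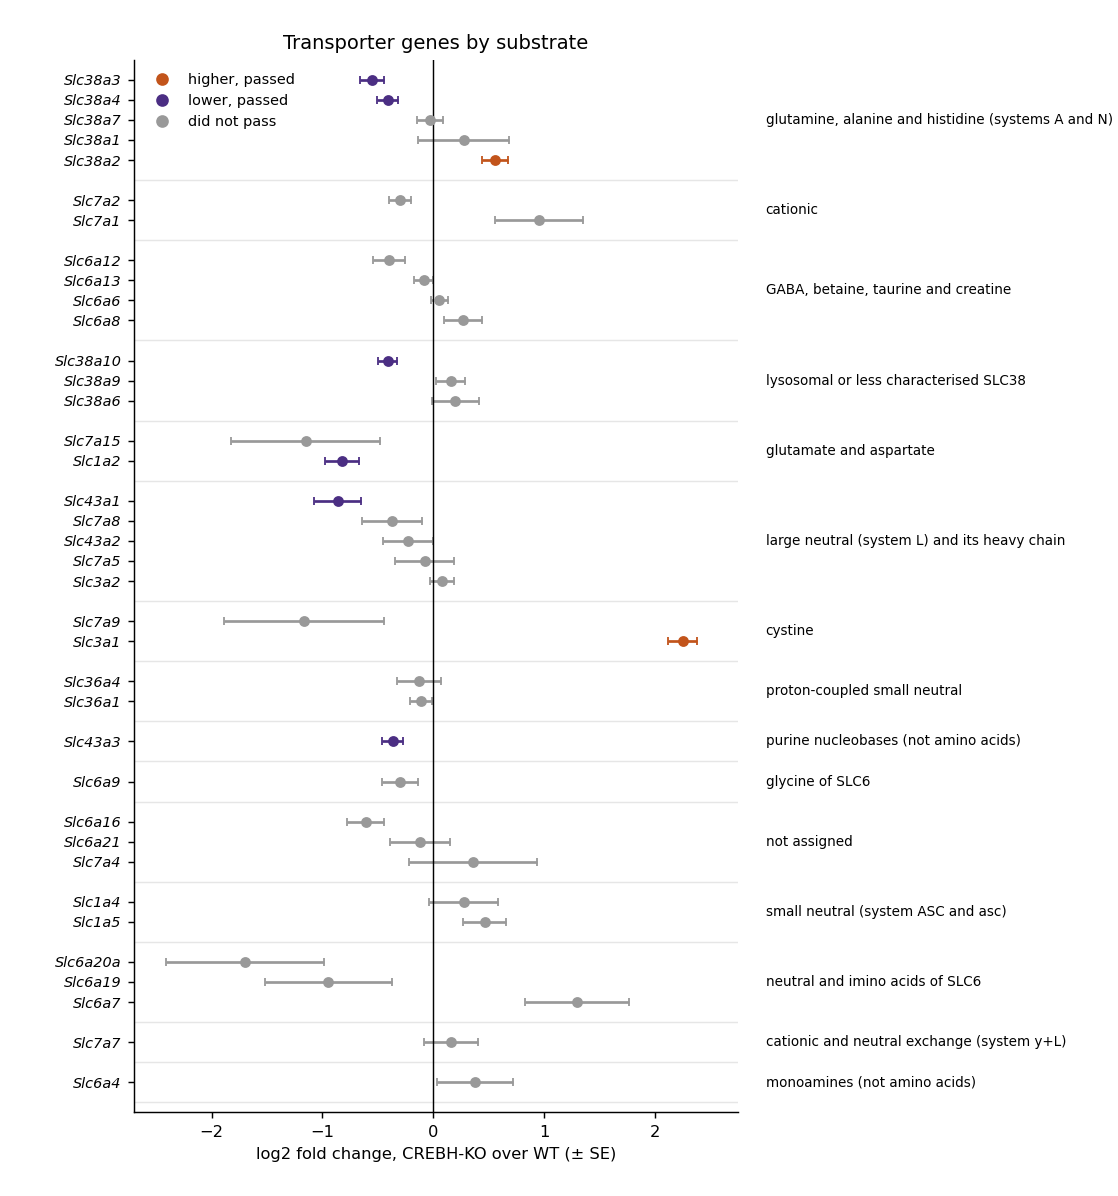
Log2 fold change of CREBH-KO over WT with its SE for the 37 tested transporter genes, grouped by assigned substrate, which is uncertain for Slc7a15. Colours mark genes that passed higher, passed lower or did not pass. Slc3a1 is the point farthest to the right, at 2.25, and the 6 genes that passed lower lie between -0.9 and -0.3.

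Slc1a2 (GLT-1), the main glutamate carrier of astrocytes and, in liver, of the hepatocytes around the central vein, was lower in CREBH-KO. It was at 152, 126 and 134 CPM in CREBH-KO livers, against 311, 215 and 205 CPM in WT livers. The groups did not overlap, and WT 1 was well above the other WT libraries. The log2 fold change was -0.83 ± 0.16 (SE, n = 3 each; edgeR adjusted p = 0.0115), a 1.77-fold difference. Without WT 1 the log2 fold change was smaller, at -0.62, and the gene still passed (edgeR adjusted p = 0.00519). The call was lost without CREBH-KO 2 (adjusted p = 0.0537) and without CREBH-KO 3 (adjusted p = 0.0510).

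Pericentral hepatocytes capture glutamate and ammonia and make glutamine from them. Of 10 pericentral marker genes, 7 (70.0%) fell and none rose, against 6.46% lower and 3.91% higher of all genes tested. The marker lists were chosen with earlier results of these data known, so this share is a description and no independent support. All 10 log2 fold changes were below 0. The 7 were Cyp2e1, Glul, Lhpp, Rgn, Oat, Rhbg and Cyp1a2. Among the WT libraries, WT 1 was the highest for every marker of this list except Cyp2e1, as it was for Slc1a2. For Glul the WT libraries were at 1367, 1045 and 961 CPM. Glul, glutamine synthetase, averaged 515 ± 29.0 CPM in CREBH-KO and 1124 ± 214 CPM in WT livers (SD, n = 3 each), and fell by 1.13 on the log2 scale (edgeR adjusted p = 0.00135). Oat, ornithine aminotransferase, averaged 1226 ± 174 CPM in CREBH-KO and 2090 ± 385 CPM in WT livers (log2 fold change -0.77, edgeR adjusted p = 0.0141). The pericentral list summed to 6914 to 8297 CPM in CREBH-KO and 14611 to 15908 CPM in WT livers, with none of its genes at 0. Of 8 periportal markers 1 rose (Etnppl), 1 fell (Pck1) and 6 did not pass. The part of hepatocyte zonation in the Slc1a2 result was not tested. Glul, Cyp2e1 and Lhpp kept their calls without any single library, and Rgn, Oat, Rhbg and Cyp1a2 lost theirs without 1 library or another (adjusted p of 0.0507 to 0.127). Cyp1a2 also lost its call with scaling by library size alone (0.0701) and with upper-quartile scaling (0.0512).

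**Figure D4:**
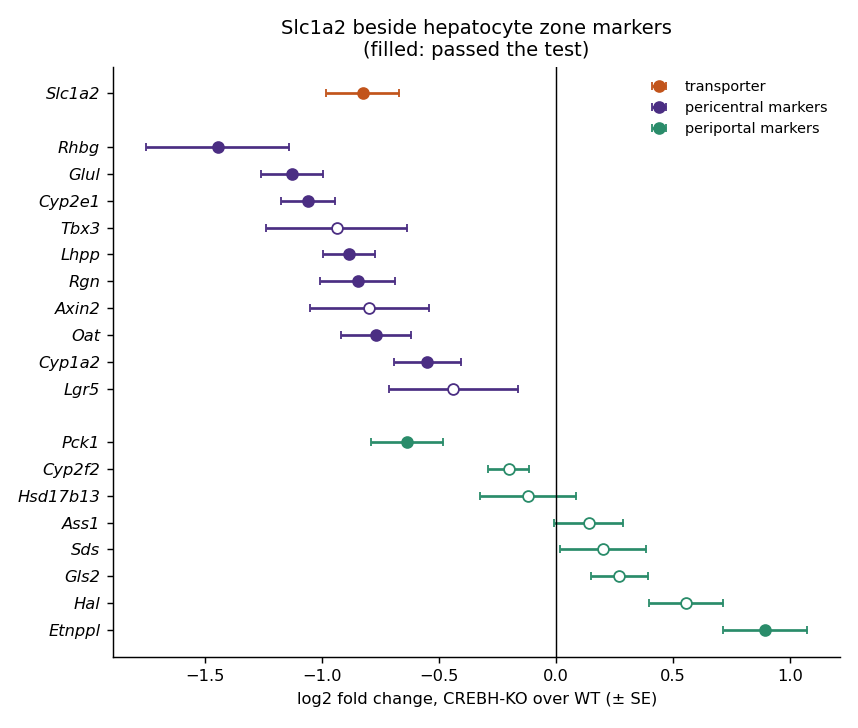
Log2 fold change of CREBH-KO over WT with its SE for Slc1a2, 10 pericentral and 8 periportal hepatocyte markers, filled where the gene passed the test. Slc1a2, at -0.83, lies among the pericentral markers, all of which are below 0, while the periportal markers lie on both sides of 0. The marker lists were chosen with earlier results of these data known.

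The other SLC1 genes gave little signal. Slc1a5 (ASCT2), a glutamine and small neutral amino acid exchanger, was at 5.09, 4.77 and 4.31 CPM in CREBH-KO livers, against 3.59, 3.88 and 2.80 CPM in WT livers. These groups did not overlap, yet the gene, at 0.46 ± 0.19 on the log2 scale (SE), did not pass (edgeR adjusted p = 0.169). Slc1a4 (ASCT1) averaged 3.19 CPM in CREBH-KO and 2.62 CPM in WT livers (edgeR adjusted p = 0.628). Slc1a1, Slc1a3, Slc1a6 and Slc1a7, the remaining glutamate carriers, had 3 to 15 counts over all 6 libraries and were not tested.

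In the SLC43 family 2 of 3 genes passed, and both fell. Of all genes tested 6.46% passed with lower levels in CREBH-KO, and 3 genes are too few for a share. Slc43a1 (LAT3), a facilitative carrier of branched-chain and other large neutral amino acids, was at 5.71, 3.58 and 4.56 CPM in CREBH-KO livers, against 6.80, 8.32 and 10.2 CPM in WT livers. All CREBH-KO libraries were below all WT libraries, and the log2 fold change was -0.86 ± 0.22 (SE, n = 3 each; edgeR adjusted p = 0.0359). The call was lost without CREBH-KO 2, CREBH-KO 3, WT 2 or WT 3 (adjusted p of 0.106 to 0.111). Slc43a2 (LAT4) averaged 9.46 CPM in CREBH-KO and 11.1 CPM in WT livers and did not pass (edgeR adjusted p = 0.578).

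Slc43a3 carries purine nucleobases and not amino acids. It was at 24.7, 22.5 and 24.8 CPM in CREBH-KO livers, against 28.4, 33.2 and 31.4 CPM in WT livers. The groups did not overlap, and the log2 fold change was -0.37 ± 0.09 (SE, n = 3 each; edgeR adjusted p = 0.0370). This call was the least stable of the 8: it was lost with scaling by library size alone (adjusted p = 0.0739), with upper-quartile scaling (adjusted p = 0.0522) and without any single library except WT 1 (adjusted p of 0.0701 to 0.141). Slc43a1 and Slc43a3 are close to each other on the plus strand of chromosome 2 (GRCm38), from 84838850 to 84863594 and from 84936579 to 84958509.

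Cationic amino acids enter hepatocytes mainly through Slc7a2 (CAT-2), which carries arginine, lysine and ornithine. Slc7a2 was at 1089, 1153 and 1084 CPM in CREBH-KO livers, against 1231, 1352 and 1517 CPM in WT livers. The CREBH-KO libraries were all below the WT libraries, but the log2 fold change of -0.30 ± 0.10 (SE) did not pass (edgeR adjusted p = 0.0876). It passed without WT 1 (adjusted p = 0.0285), in DESeq2 (adjusted p = 0.0250) and without a filter on low counts (adjusted p = 0.0297). Slc7a1 (CAT-1), the carrier of most other tissues, averaged 1.10 ± 0.364 CPM in CREBH-KO and 0.566 ± 0.166 CPM in WT livers (SD, n = 3 each) and did not pass (edgeR adjusted p = 0.171). Of the 8 tested SLC7 genes none passed, against 10.4% of all genes tested, and 8 genes are too few to set the family apart.

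None of the 11 tested SLC6 genes passed, and 3 of the 12 highest transporters belong to this family. With 10.4% of all genes tested passing, none of 11 is near that share and does not set the family apart. Slc6a13 (GAT2), a carrier of GABA and taurine in liver and kidney, was at 171, 189 and 171 CPM in CREBH-KO livers, against 176, 201 and 186 CPM in WT livers. The groups overlapped (log2 fold change -0.09 ± 0.08, edgeR adjusted p = 0.572). Its neighbour on chromosome 6, Slc6a12 (BGT1), a carrier of betaine and GABA, was at 94.0, 65.6 and 69.0 CPM in CREBH-KO livers, against 90.2, 114 and 96.9 CPM in WT livers. CREBH-KO 1 lay in the WT range and the other CREBH-KO libraries below it. The log2 fold change of -0.40 ± 0.14 (SE) did not pass (edgeR adjusted p = 0.121), but it did without CREBH-KO 1 (adjusted p = 0.0185) and without a filter on low counts (adjusted p = 0.00615). Slc6a6, the taurine carrier, was at 100.1, 87.7 and 94.9 CPM in CREBH-KO livers, against 91.8, 89.4 and 91.2 CPM in WT livers, and the groups overlapped (edgeR adjusted p = 0.717).

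The less abundant SLC6 genes include carriers of creatine and glycine. Slc6a8, the creatine carrier, was at 10.4 to 16.6 CPM in CREBH-KO and 11.5 to 12.3 CPM in WT livers, and Slc6a9 (GlyT1), a glycine carrier, averaged 14.6 CPM in CREBH-KO and 18.0 CPM in WT livers. Neither passed (edgeR adjusted p of 0.379 and 0.297). Slc6a16, an orphan member, was closest to the threshold of the tested transporters that did not pass. It was at 3.89, 3.35 and 4.10 CPM in CREBH-KO livers, against 5.74, 5.41 and 6.18 CPM in WT livers. The groups did not overlap, and the adjusted p was 0.0501 in edgeR, 0.0198 in DESeq2 and 0.0480 in limma-voom. Slc6a7, a proline carrier of the brain, had 64 counts over the CREBH-KO libraries and 27 over the WT libraries (log2 fold change 1.30 ± 0.47, edgeR adjusted p = 0.120).

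Slc6a19 (B0AT1), the main neutral amino acid carrier of the intestinal and renal brush border, differed more among the CREBH-KO libraries than between the genotypes. It was at 7.87, 1.93 and 1.10 CPM in CREBH-KO livers, against 5.79, 7.29 and 8.10 CPM in WT livers. CREBH-KO 1 lay within the WT range and CREBH-KO 2 and CREBH-KO 3 far below it. With all libraries its log2 fold change was -0.95 ± 0.57 (SE, edgeR adjusted p = 0.342). Without CREBH-KO 1 the adjusted p was 0.00278, and with all libraries but no filter on low counts it was 0.0177. With CREBH-KO 1 alone against WT the log2 fold change was 0.14.

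The same libraries stood apart in Slc7a9 and Slc7a15. Slc7a15, whose place here among the carriers of acidic amino acids is uncertain, was at 1.73, 0.169 and 0.306 CPM in CREBH-KO livers, against 1.27, 1.91 and 1.82 CPM in WT livers. Slc6a20a, a carrier of proline and other imino acids, was at 0.322, 0.0338 and 0.0612 CPM in CREBH-KO livers, against 0.698, 0.344 and 0.358 CPM in WT livers. Its values rest on 11, 1 and 2 counts in the CREBH-KO libraries, against 27, 11 and 11 in the WT libraries. Slc7a9, Slc7a15 and Slc6a20a passed without CREBH-KO 1 (edgeR adjusted p of 0.00865 to 0.0388) and not with all libraries (0.174 to 0.356).

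Most, but not all, listed markers of the small intestine epithelium showed the same libraries apart. In 109 of all genes tested (0.699%), CREBH-KO 1 was at or above the lowest WT library. In the same genes both CREBH-KO 2 and CREBH-KO 3 were below 0.5 times that library. None of the 109 passed the test, but a rule that splits the CREBH-KO libraries itself makes a call unlikely. The 109 included the transporters Slc6a19, Slc7a9 and Slc7a15. They also included 9 of 13 tested genes of a list of 14 intestinal markers, a list chosen after these values were seen. The pattern turned round, with CREBH-KO 1 low, was met by 21 genes. That rule asks for 1 low library and not 2, so the 2 counts cannot be compared. The list summed to 259, 134 and 146 CPM in the CREBH-KO libraries, against 247, 271 and 303 CPM in the WT libraries, and none of its genes was at 0 in all 6 libraries. Sis, sucrase-isomaltase, was at 16.4, 3.38 and 4.77 CPM in CREBH-KO livers, against 13.8, 14.2 and 19.2 CPM in WT livers. Vil1, villin, was at 16.8, 4.09 and 3.64 CPM in CREBH-KO livers, against 11.2, 15.6 and 17.7 CPM in WT livers. Other markers of the list went otherwise. Lgals4 rose, at 96.5, 91.1 and 104.5 CPM in CREBH-KO livers, against 74.7, 59.5 and 63.6 CPM in WT livers (edgeR adjusted p = 0.00964). Tff3 was at 31.3, 9.84 and 9.15 CPM in CREBH-KO livers, against 5.09, 4.47 and 8.75 CPM in WT livers, and did not pass (edgeR adjusted p = 0.0828). Fabp2 fell, at 40.7, 15.0 and 14.3 CPM in CREBH-KO livers, against 100.9, 121 and 133 CPM in WT livers, with CREBH-KO 1 also below every WT library (edgeR adjusted p = 0.00466). The part of intestinal transcripts in the values of these transporters was not tested. Slc3a1, also a gene of the intestine, was high in all 3 CREBH-KO libraries and highest in CREBH-KO 1.

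**Figure D5:**
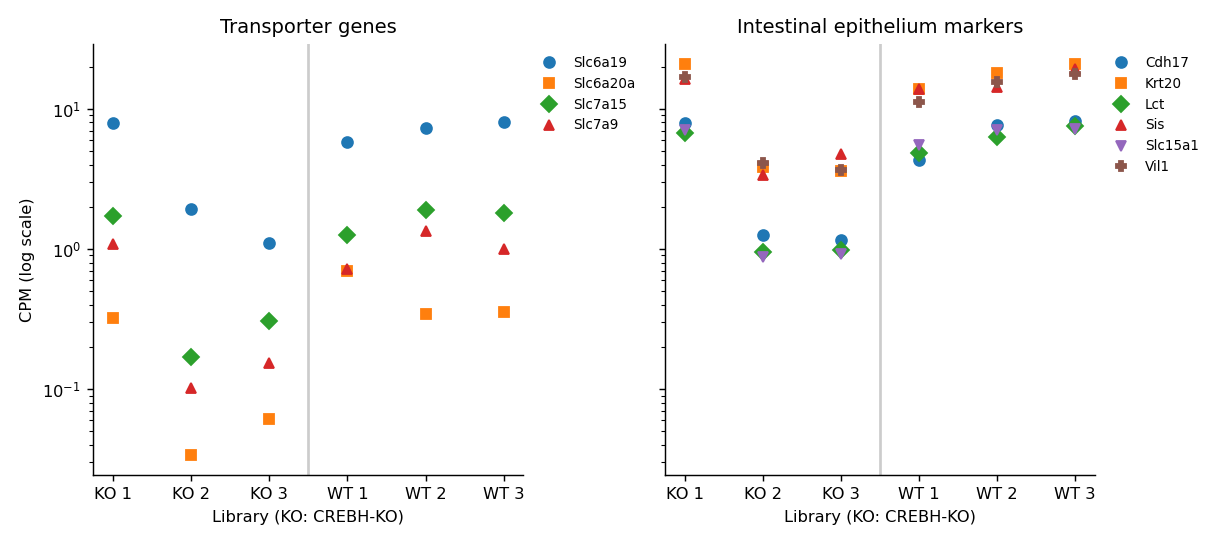
Level in CPM on a log axis of Slc6a19, Slc6a20a, Slc7a9 and Slc7a15 (left) and of 6 of the 14 intestinal epithelium markers (right) in each of the 6 libraries. In both panels KO 2 and KO 3 lie below the WT libraries while most genes of KO 1 lie level with them, unlike the undrawn markers Lgals4 and Tff3, which were above every WT library in KO 2 and KO 3, and Fabp2, which was below every WT library in KO 1 too.

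The proton-coupled SLC36 carriers of small neutral amino acids did not pass. Slc36a1 (PAT1), known from lysosomes, averaged 27.9 CPM in CREBH-KO and 30.1 CPM in WT livers, and Slc36a4 averaged 7.83 CPM in CREBH-KO and 8.54 CPM in WT livers (edgeR adjusted p of 0.521 and 0.730). Slc36a2 and Slc36a3 had 2 and 1 counts over all libraries.

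Of the 26 untested transporters, 8 had no count in any library and 13 had 1 to 10 counts over all libraries. The 8 were Slc6a2, Slc6a5, Slc6a11, Slc6a14, Slc6a15, Slc7a10, Slc7a12 and Slc7a14, among them the noradrenaline carrier Slc6a2 and the neuronal glycine carrier Slc6a5. A count of 0 allows a level of up to 0.0775 to 0.102 CPM per library, for counting error only. Slc6a18, a carrier of the kidney, had 5 counts in all. In the 8 genes without counts a difference was not detectable at this depth. The other untested genes were left out by the count limit, so differences in them were not tested.

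Amino acid carriers of other families and proteins that act on the transporters were compared in the same test. Of 7 tested carriers of a list of 10, only Slc16a10 passed, or 14.3% against 10.4% of all genes. Slc16a10 (TAT1), an aromatic amino acid carrier, was at 111, 108 and 125 CPM in CREBH-KO livers, against 148, 150.5 and 160.3 CPM in WT livers. The groups did not overlap, and it fell by 0.42 on the log2 scale (edgeR adjusted p = 0.0155), a call lost without CREBH-KO 2 (0.0613) and without WT 2 (0.0606). Of 8 tested partner proteins of a list of 9, Sgk1 and Nedd4l rose and 6 did not pass. That is 25.0%, against 3.91% higher among all genes tested. Sgk1 encodes a kinase and Nedd4l a ubiquitin ligase, which are known to raise and to lower the surface amount of several carriers. Sgk1 averaged 32.1 ± 7.67 CPM in CREBH-KO and 18.2 ± 0.762 CPM in WT livers (SD, n = 3 each; edgeR adjusted p = 0.0128). Nedd4l averaged 68.1 ± 5.93 CPM in CREBH-KO and 47.3 ± 7.30 CPM in WT livers (SD, n = 3 each; edgeR adjusted p = 0.0254). The Sgk1 call needed WT 2, without which its adjusted p was 0.0613. The Nedd4l call was lost when CREBH-KO 2, CREBH-KO 3, WT 2 or WT 3 was left out (adjusted p of 0.0503 to 0.0952).

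Amino acids are sensed through mTORC1, which promotes growth when they are plentiful, and through the kinase GCN2 and the factor ATF4, which are active when they are scarce. Of 34 tested genes of the mTORC1 list, 4 fell and none rose, or 11.8% against 10.4% of all genes. They were Mtor, the kinase itself (-0.44 on the log2 scale), its scaffold Rptor (-0.36), the leucine sensor family member Sesn3 (-0.62) and the GATOR2 subunit Sec13 (-0.29). Each lost its call without CREBH-KO 2, without CREBH-KO 3 and without WT 2 (adjusted p of 0.0517 to 0.127). Rptor (0.0672) and Sec13 (0.140) also lost theirs with scaling by library size alone, and Sec13 with upper-quartile scaling (0.0608) and without any single library. Of 20 genes of the GCN2 and ATF4 list, 4 rose and 3 fell, or 35.0% against 10.4% of all genes. Slc38a2, a known target of this response, rose, and the part of this response in its change was not tested. The 4 were Asns, Psat1, Vldlr and Ddit3, and the 3 were Atf5, Trib3 and Eif4ebp1, with log2 fold changes from -1.15 for Trib3 to 2.34 for Psat1. Atf5 and Vldlr kept their calls without any single library, and the other 5 lost theirs without 1 library or another (adjusted p of 0.0501 to 0.128). Eif4ebp1 also lost its call with scaling by library size alone (0.115) and with upper-quartile scaling (0.0586). The list did not move in one direction, and Slc7a11, another known target, was not tested at its 5 counts.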

How the data were processed

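Liver RNA of 3 CREBH-KO and 3 WT samples was measured by RNA sequencing. The authors deposited read counts per gene, 1 table per library, made with HTSeq per the labels. The strand setting, build and aligner were not given in the sources used here. Each of the 55536 gene identifiers had a match in GENCODE M21 (GRCm38), which gave symbols, positions and exon lengths. HTSeq's summary lines, 27.4% to 31.2% of the reads listed per library, were left out.

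Counts were tested in R 4.3.3 with edgeR 4.0.16: filterByExpr (minimum count 10, minimum total 15; 15589 genes, 99.9% of counts kept), TMM factors (0.967 to 1.05), the quasi-likelihood test of CREBH-KO against WT without covariates, two-sided, and Benjamini-Hochberg adjustment over all genes tested. A gene passed at an adjusted p under 0.05. SEs were derived from the log2 fold change and the F statistic. CPM use effective library sizes. No pair of replicates agreed within sampling noise (lowest chi-square over degrees of freedom, 18.8). Alternatives used other scaling, other filters, DESeq2 1.42.0, limma-voom (limma 3.58.1), edgeR's robust fit and left-out libraries. Promoters came from RefSeq (GRCm38.p6).

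Values in every library are given for transporters that passed and for the 12 highest per kb of exon, and others are given by mean or count. The members, substrate lists and marker lists were chosen with earlier results of these data known. Genes that share exons with others are uncertain. Some genes are not reported here.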

Additional observations from a re-analysis of the deposited data

How the results depend on the processing

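No paired analysis was possible because the labels give the libraries no replicate numbers, and the numbers used here only name them. Of all genes tested, 1616 passed, 2456 without a filter on low counts, 658 (without WT 2) to 1806 (without WT 1) with 1 library left out, and 228 with CREBH-KO 1 alone against WT. Of the transporters, 8 passed, 1 to 11 with 1 library left out, and 1 with CREBH-KO 1 alone. The median log2 fold change of the tested transporters was -0.11 and turned to 0.0375 with CREBH-KO 1 alone. The causes were not tested, and fewer samples enter these fits; with CREBH-KO 1 alone, that library is assumed to vary as the WT libraries do. Scaling by library size alone moved the median of all genes to 0.10. The split of calls was then 813 higher and 726 lower, against 609 higher and 1007 lower with TMM.

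Among single genes, changes of sign were limited to transporters that did not pass. With CREBH-KO 1 alone the log2 fold change was 0.14 for Slc6a19, 0.088 for Slc7a8, 0.0613 for Slc7a9, 0.034 for Slc7a15 and 0.0845 for Slc38a7. Slc38a7 was at 0.0398 with library size alone, 0.0038 with upper-quartile factors, and -0.1155 (without WT 1) to 0.0705 (without CREBH-KO 2) with 1 library left out. With 1 library left out, Slc1a4 ranged from -0.0238 (without WT 3) to 0.477, Slc43a2 from -0.373 to 0.0827 (without WT 3), Slc7a4 from -0.1418 (without WT 1) to 1.054, Slc38a1 from -0.0645 (without WT 1) to 0.5323, and Slc7a5 from -0.3534 to 0.0598 (without CREBH-KO 2).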
